A study of Homo sapiens with 36 samples.

Results

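Adding siRNA against Hic-5 to cells that already received siRNA against BRM left the Hic-5 transcript at 18.9% of its level with BRM siRNA alone. With the spread estimated over all siRNA conditions of the series, 2894 of 15179 tested genes were called as changed. With the spread from the 2 compared conditions alone, 228 were. The comparison takes 12 of the 36 libraries of the series, chosen by their labels: 6 siBRMsiHic5 libraries and 6 siBRMsiNS libraries. All come from U2OS-GRα cells, a human osteosarcoma line that stably carries the glucocorticoid receptor alpha (GR) from a transfected gene. The siBRMsiHic5 cells received siRNA against BRM and siRNA against Hic-5. The siBRMsiNS cells received siRNA against BRM and non-silencing siRNA, so both conditions share the BRM siRNA. At 48 h after transfection the cells were given 100 nM dexamethasone (dex), a synthetic glucocorticoid, or ethanol as vehicle, for 8 h. Each condition has 3 replicates made on different days, each with 1 vehicle and 1 dex library. The same hormone arms and replicate numbers exist for siHic5siNS against siNSsiNS, where no remodeler is targeted, and for siCHD9siHic5 against siCHD9siNS, both labelled as given CHD9 siRNA. The study asked whether genes on which Hic-5 holds back the receptor need the remodelers BRM and CHD9 once Hic-5 is depleted.

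Hic-5, encoded by TGFB1I1, is a relative of paxillin with LIM domains. It sits at focal adhesions, where integrins meet the actin cytoskeleton, and it also enters the nucleus, where it acts as a coregulator of steroid receptors. BRM, encoded by SMARCA2, is an ATPase of SWI/SNF complexes, which use ATP to move nucleosomes. BRG1, encoded by SMARCA4, is the alternative ATPase of these complexes, and GR depends on such remodelers at many of its binding sites.

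The 12 libraries held 27442282 to 47148257 counts. Vehicle and dex libraries of 1 condition and replicate number deviated together from their group means (correlations of 0.656 to 0.922 across genes). Their counts were summed, and each such pair is called a transfection here, so the comparison is 3 transfections against 3. The sample titles give the shared replicate number and not whether 1 transfection supplied both libraries. Levels are library-size-normalised counts (CPM) scaled by upper-quartile factors, called scaled CPM, given for transfections 1, 2 and 3. Adjusted p values come from edgeR's quasi-likelihood test with Benjamini-Hochberg adjustment over all genes, and a gene is called at an adjusted p under 0.05. Both libraries of siBRMsiNS replicate 3 stood apart: on the first principal component they lay at 9.86 and 8.68, against 15.1 to 33 for siBRMsiHic5 libraries and -49.6 to -32.8 for the other siBRMsiNS libraries. Their TGFB1I1 and SMARCA2 levels matched the label. Counts of the ribosomal RNA gene RNA28S5 took 0.511 to 0.813% of the libraries numbered 1 and 1.92 to 7.51% of those numbered 2 and 3, highest in siBRMsiNS replicate 3; the part of this share in the results was not tested. The mesenchymal gene VIM measured 1650 to 2110 with siBRMsiHic5 and 1450 to 1890 with siBRMsiNS. Of the epithelial markers, the keratins KRT8 (163 to 211 and 140 to 414) and KRT18 (212 to 381 and 215 to 455) were measured too, while CDH1 reached no more than 1.8. Of 5 leukocyte markers only LYZ was measured, at no more than 3.01, and the osteoblast markers SP7 and BGLAP were not analysed here.

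**Figure D1:**
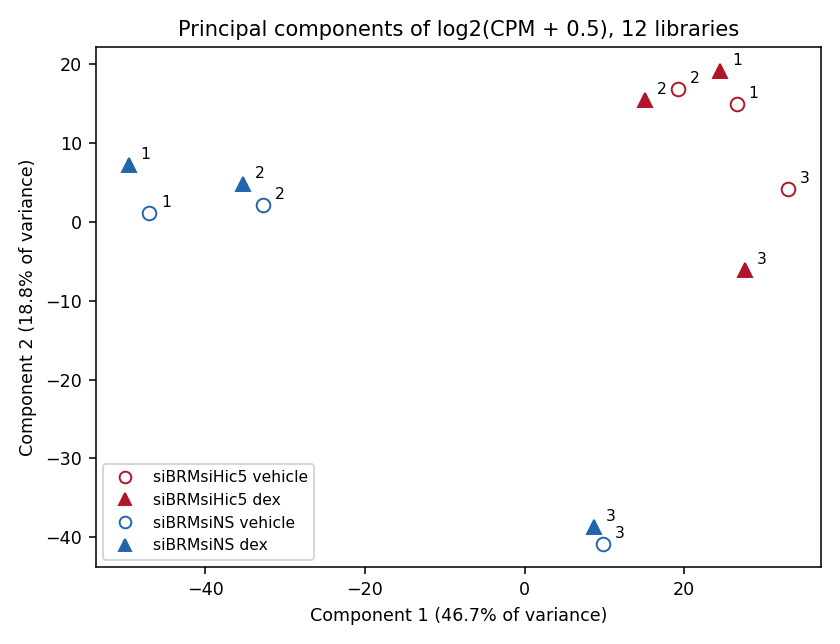
Principal components of log2(scaled CPM + 0.5) for the 12 libraries, by condition (colour), hormone (open circles for vehicle, filled triangles for dex) and replicate number. Component 1 holds 46.7% and component 2 holds 18.8% of the variance, and both siBRMsiNS replicate 3 libraries lie far from the other siBRMsiNS libraries.

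The targeted transcripts come first. TGFB1I1 (chr16:31472152-31477960 on GRCh38, RefSeq) measured 5.64, 4.86 and 5.05 scaled CPM in siBRMsiHic5 transfections, against 31.3, 24.1 and 27 in siBRMsiNS transfections. The groups were far apart: the highest siBRMsiHic5 library reached 6.47 and the lowest siBRMsiNS library 21.7 (log2 change -2.40 ± 0.22, adjusted p = 3.25e-05). SMARCA2 averaged 8.26 ± 1.09 with siBRMsiHic5 and 9.21 ± 1.02 with siBRMsiNS (SD, n = 3), whereas cells without a remodeler siRNA averaged 39.5 ± 4.11 with siHic5siNS and 33.9 ± 5.37 with siNSsiNS. The siBRMsiHic5 and siBRMsiNS values of SMARCA2 overlapped and no difference was called (log2 change -0.16 ± 0.16, adjusted p = 0.498). SMARCA4 (log2 change -0.07 ± 0.13, adjusted p = 0.713) and NR3C1, the gene of GR (log2 change 0.08 ± 0.13, adjusted p = 0.688), overlapped as well. CHD9, which encodes another remodeler, had 45.5, 54.4 and 50.1 with siBRMsiHic5 and 59, 69.7 and 77.8 with siBRMsiNS. Its transfections did not overlap, but the change missed the threshold (log2 change -0.46 ± 0.16, adjusted p = 0.0565) and passed it when the replicate number was a block (adjusted p = 0.0416). In vehicle libraries alone CHD9 was called lower (log2 change -0.71 ± 0.152, adjusted p = 0.00594). In dex libraries alone it was not called (log2 change -0.20 ± 0.195, adjusted p = 0.512), and the difference between the arms was not called either (adjusted p = 0.0804).

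Over all genes, 1084 rose (7.14% of those tested) and 1810 fell (11.9%) with siBRMsiHic5 relative to siBRMsiNS, 19.1% together. The counts given for each gene list below are to be read against these shares. The change exceeded 2-fold for 173 of the genes that rose and 568 of those that fell. With TMM factors the split was 1426 higher and 1573 lower, and with DESeq2 it was 1785 and 1961. Without siBRMsiNS replicate 3 the count was 5003 (33% of genes), with 2266 higher (14.9%) and 2737 lower (18%), and with the replicate number as a block 3621 (23.9%; 9.78% higher and 14.1% lower). The siBRMsiHic5 transfections lay wholly above the siBRMsiNS transfections for 1857 genes (12.2%) and wholly below them for 2697 (17.8%), 30% together. The number of called genes was 1441 without siBRMsiNS replicate 1, 1612 without siBRMsiHic5 replicate 1 and 1910 without siBRMsiHic5 replicate 3. Calls that ended when any 1 of the 6 transfections was left out are pointed out for each named gene; 80 of 133 called genes named by the rule kept their call in all 6 of these fits. The fits above estimated the spread from all siRNA conditions together. Median absolute log2 deviations from the other transfections of the condition were 0.244, 0.177 and 0.31 for siBRMsiNS 1, 2 and 3. They were 0.174, 0.143 and 0.159 for siBRMsiHic5, and 0.108 to 0.213 in conditions without BRM siRNA. When the spread was estimated from these 2 conditions alone, 228 genes were called, TGFB1I1, FHL1, NECAP2, ACRC, HMOX1, MMP3 and MYL4 among them. In that fit 91 of the 133 called genes named by the rule lost their call, FHL2, LGR5 and FOXO1 among them.

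Among 18 genes of the paxillin family and LIM adaptors, which link adhesions to actin and in part shuttle to the nucleus, 1 rose and 3 fell, TGFB1I1 included. The median log2 change of the list was 0.06, against -0.05 over all genes. FHL1, a LIM-only protein of muscle and stress fibres, had 78.9, 79.4 and 79.7 scaled CPM with siBRMsiHic5 and 197, 179 and 153 with siBRMsiNS. No library overlapped, and the siBRMsiHic5 transfections were nearly equal (log2 change -1.15 ± 0.10, adjusted p = 3.25e-05). FHL2, its relative and a coregulator of nuclear receptors, went the other way, with 256, 142 and 184 against 126, 80.5 and 93.2; the transfections did not overlap, while single libraries did (log2 change 0.96 ± 0.22, adjusted p = 0.00757). LIMD1, a LIM protein of cell junctions, fell (log2 change -0.41 ± 0.11, adjusted p = 0.0189), a call that ended in 4 of the 6 left-out fits. Paxillin itself, PXN, had 166, 208 and 192 against 199.7, 227 and 124, which overlapped (log2 change 0.04 ± 0.18, adjusted p = 0.898). Leupaxin, LPXN, the remaining paxillin family member, had 16.8, 24.1 and 43.1 against 15.2, 21.4 and 14.1, with siBRMsiHic5 replicate 3 highest (log2 change 0.73 ± 0.33, adjusted p = 0.127). The zyxin relative TRIP6 had 92.2, 102 and 90.9 against 64.7, 77.3 and 73.3 with no overlap, and was not called (adjusted p = 0.0787), but passed with the replicate block (adjusted p = 0.0373), with DESeq2 (adjusted p = 0.0316) and with limma (adjusted p = 0.0425).

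**Figure D2:**
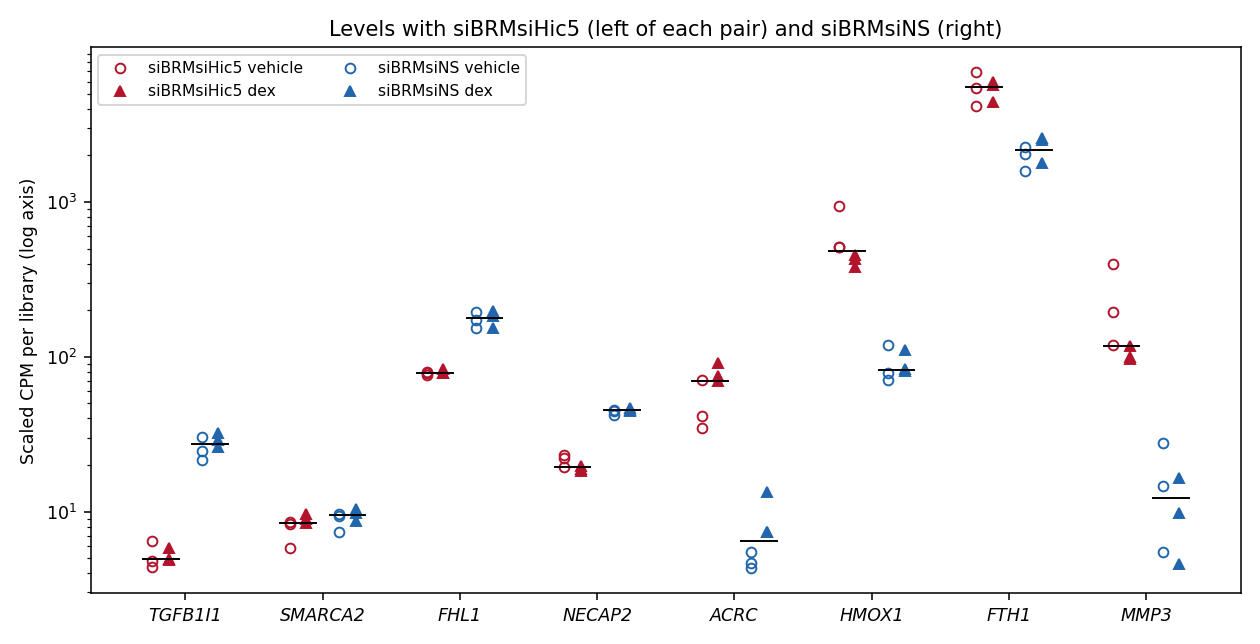
Scaled CPM (log axis) of 8 genes in each library, with siBRMsiHic5 left of siBRMsiNS, open circles for vehicle, filled triangles for dex and a line at the median of 6 libraries. TGFB1I1, FHL1 and NECAP2 lie lower and ACRC, HMOX1, FTH1 and MMP3 higher with siBRMsiHic5, with no overlap between libraries, while SMARCA2 overlaps.

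Few adhesion genes were called. Of 15 integrins 1 rose and 3 fell (median -0.21), and of 24 core focal adhesion genes 1 rose and 3 fell (median -0.11; 7 fell without siBRMsiNS replicate 3). With 19.1% of all genes called, these counts are by themselves no result about adhesion genes. ITGA5, the alpha chain of the main fibronectin receptor, had 867, 562 and 489 scaled CPM with siBRMsiHic5 and 343, 273 and 384 with siBRMsiNS, with no overlap (log2 change 0.94 ± 0.22, adjusted p = 0.00976). The collagen receptor chains ITGA11 (log2 change -1.67 ± 0.42, adjusted p = 0.0128) and ITGA1 (log2 change -0.54 ± 0.14, adjusted p = 0.0171) and the laminin receptor chain ITGA7 (log2 change -0.57 ± 0.17, adjusted p = 0.0313) fell. FERMT2, which encodes the integrin activator kindlin-2, had 73.3, 68.2 and 68.3 against 261, 206 and 188. The gap was wide in every library (log2 change -1.64 ± 0.23, adjusted p = 0.000511). VASP, an actin polymerisation factor at adhesions, rose (log2 change 0.53 ± 0.14, adjusted p = 0.019), while ENAH, of the same family (log2 change -0.59 ± 0.18, adjusted p = 0.0309), and the tensin TNS3 (log2 change -0.64 ± 0.19, adjusted p = 0.0305) fell. Of these, only the FERMT2 call was kept in all 6 left-out fits. Of 20 contractile genes 3 rose and 3 fell. SMTN, which encodes smoothelin, rose (log2 change 1.15 ± 0.19, adjusted p = 0.00143), as did smooth muscle actin, ACTA2 (log2 change 0.88 ± 0.24, adjusted p = 0.0182). CNN2, a calponin that binds actin (log2 change -1.42 ± 0.29, adjusted p = 0.00449), and LMOD1, a leiomodin of smooth muscle (log2 change -1.09 ± 0.21, adjusted p = 0.00307), fell. Of these 4 calls, that of ACTA2 ended in some left-out fits.

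Matrix genes changed singly and in both directions. With 7.14% of all genes called higher and 11.9% called lower, the list counts here are by themselves no result about matrix genes. Of 27 collagen and laminin genes 4 fell and no member rose (median -0.06). LAMA5, a laminin chain of basement membranes, had 109, 94.4 and 78.6 scaled CPM with siBRMsiHic5 and 277, 229 and 168 with siBRMsiNS; the libraries did not overlap (log2 change -1.25 ± 0.27, adjusted p = 0.00544). COL18A1, a basement membrane collagen, fell (log2 change -0.79 ± 0.18, adjusted p = 0.00802), and the calls of LAMA3 (log2 change -1.58 ± 0.47, adjusted p = 0.0283) and LAMB2 (log2 change -0.52 ± 0.17, adjusted p = 0.0402) ended in some left-out fits. Of 24 matrix glycoprotein and crosslinker genes 3 rose and 5 fell (8 and 6 without siBRMsiNS replicate 3). The lysyl oxidase LOXL2, which crosslinks collagen, had 116, 93.1 and 95.4 against 204, 152 and 206 (log2 change -0.88 ± 0.17, adjusted p = 0.00356), and the collagen prolyl hydroxylase P4HA2 had 203, 149.8 and 123 against 89.5, 77.6 and 114 (log2 change 0.76 ± 0.17, adjusted p = 0.00832). Neither overlapped in any library, and they moved in opposite directions. Decorin, DCN, was barely detected, with 0.228, 0.149 and 0.21 against 1.52, 0.906 and 0.424 (log2 change -2.26 ± 0.42, adjusted p = 0.00251). Of 25 metalloproteinases and inhibitors 2 rose and 2 fell. MMP3, stromelysin-1, a secreted protease that degrades matrix proteins, had 107, 155 and 256 against 12.4, 21.9 and 5.01. Its spread was wide in both conditions, 96.4, 118 and 395 as the lowest, median and highest siBRMsiHic5 library against 4.57, 12.2 and 27.9 for siBRMsiNS, yet no library overlapped (log2 change 3.72 ± 0.88, adjusted p = 0.00955). ADAMTS12, a secreted protease with thrombospondin repeats, fell (log2 change -1.24 ± 0.15, adjusted p = 0.000162).

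Ligands and receptors of the TGF-beta and BMP pathways fell more often than they rose. Hic-5 was first isolated as a gene induced by TGF-beta, a cytokine that signals through SMAD proteins. Of 28 ligand, receptor and SMAD genes 10 fell and 1 rose (median -0.18), where 1810 of 15179 genes fell. The number that fell was 6 without siBRMsiHic5 replicate 1 or replicate 3, 5 without siBRMsiHic5 replicate 2 and 4 without siBRMsiNS replicate 1. Over all genes 1081, 1184, 1363 and 967 fell in these fits, in the same order. TGFB2 had 17.2, 30.6 and 17 scaled CPM with siBRMsiHic5 and 79, 97.8 and 52.1 with siBRMsiNS (log2 change -1.82 ± 0.38, adjusted p = 0.00474). BMP4, a bone morphogenetic protein, had 75.7, 66.3 and 39.95 against 226, 197 and 109.8 (log2 change -1.55 ± 0.32, adjusted p = 0.00492). Neither ligand overlapped in any library. The co-receptor TGFBR3, or betaglycan (log2 change -0.76 ± 0.17, adjusted p = 0.00826), and the type I receptor BMPR1A (log2 change -0.54 ± 0.13, adjusted p = 0.00991) also fell. The inhibitory SMAD7 (log2 change -1.02 ± 0.34, adjusted p = 0.0437) and the repressor SKIL (log2 change -0.70 ± 0.21, adjusted p = 0.0329) fell too, with calls that ended in some left-out fits. The 1 member that rose was INHBB, a chain of activin B (log2 change 1.19 ± 0.36, adjusted p = 0.0315), a call that ended in 3 of the 6 left-out fits. Of 21 TGF-beta target genes 1 rose and 2 fell.

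Most WNT and angiogenic genes were not called, and nearly all that were called had fallen, where 11.9% of all genes fell. Of 21 WNT ligand and feedback genes 5 fell and no member rose (median -0.54). WNT2B, a secreted ligand, had 2.03, 1.59 and 1.91 scaled CPM with siBRMsiHic5 and 6.23, 5.03 and 4.49 with siBRMsiNS, with no overlap (log2 change -1.51 ± 0.17, adjusted p = 1e-04). LGR5, an R-spondin receptor known from intestinal stem cells, had 0.63, 0.38 and 0.445 against 6.85, 3.01 and 0.915, a wide spread among siBRMsiNS transfections (log2 change -2.89 ± 0.64, adjusted p = 0.00665). Its relative LGR4 (log2 change -1.26 ± 0.24, adjusted p = 0.00307) and NKD1, a feedback inhibitor of WNT signalling (log2 change -0.92 ± 0.20, adjusted p = 0.00677), fell as well. Of 22 VEGF, endothelin and angiogenic genes 6 fell and 1 rose (median -0.25). ANGPT1, a ligand of the TIE2 receptor, had 0.928, 0.72 and 0.704 against 3.13, 2.95 and 2.54 (log2 change -1.88 ± 0.24, adjusted p = 0.000316), and placental growth factor, PGF, had 5.76, 7.14 and 5.92 against 23.9, 19.99 and 8.05 (log2 change -1.46 ± 0.32, adjusted p = 0.00656). The calls of the VEGF receptor FLT1 (log2 change -1.45 ± 0.39, adjusted p = 0.0183) and of adrenomedullin, ADM (log2 change -0.98 ± 0.25, adjusted p = 0.0142), ended in some left-out fits.

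Lineage genes of bone and muscle mostly had negative changes as well. Of 10 osteoblast and bone genes 3 fell and no member rose (median -0.42). RUNX2, the transcription factor of the osteoblast lineage, had 15.2, 16.2 and 15.5 scaled CPM with siBRMsiHic5 and 41.9, 25.6 and 33.9 with siBRMsiNS. The siBRMsiHic5 values were nearly equal and lay below every siBRMsiNS library (log2 change -1.11 ± 0.22, adjusted p = 0.00356). DLX3, a homeobox factor of bone, fell as well (log2 change -1.56 ± 0.39, adjusted p = 0.0117), and its call ended in some left-out fits. Of 19 striated muscle genes 5 fell and no member rose (median -0.66; 9 fell without siBRMsiNS replicate 3). MYL4, a myosin light chain of atrial and embryonic muscle, had 0.98, 0.516 and 0.976 against 17.8, 8.07 and 3.77, far apart in every library (log2 change -3.58 ± 0.52, adjusted p = 0.000607). The calls of MYH3, NEB and MEF2C, with log2 changes of -0.70, -0.68 and -1.40, ended in some left-out fits. The summed level of the skeletal muscle markers DES, ACTA1 and MYH3 was 4.16 to 6.58 with siBRMsiHic5 and 8.33 to 10 with siBRMsiNS. It was mainly MYH3 (3.2 to 5.21 against 6.17 to 7.93), while DES and ACTA1 overlapped. MYOD1 and MYOG were not analysed here. The sum of 4 neuronal markers was 122 to 142 and 168 to 196. It was mainly TUBB3 (89.7 to 112 against 131 to 167), while RBFOX3, SNAP25 and SYT1 overlapped. All libraries come from 1 cell line, and bulk RNA does not show whether fewer cells expressed these genes or each cell expressed less. Of 20 targets of YAP and TAZ, coactivators that respond to adhesion and stiffness, 4 fell and no member rose (median -0.35), namely TGFB2, ARHGEF17, DLC1 and CRIM1. The last 3 calls ended in some left-out fits, and 8 members fell and 1 rose without siBRMsiNS replicate 3.

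Interferon-stimulated genes, which encode antiviral proteins, had the lowest median of the 30 lists. Of 27 genes 16 fell and no member rose, 25 of the 27 changes were negative, and the median was -0.76. The number that fell was 18 without siBRMsiNS replicate 3, 9 without siBRMsiHic5 replicate 2, 6 without siBRMsiHic5 replicate 1 and 5 without siBRMsiNS replicate 1. IFIT1, which binds viral RNA, had 6.79, 5.16 and 7.35 scaled CPM with siBRMsiHic5 and 20.4, 11.3 and 16.8 with siBRMsiNS; no library overlapped (log2 change -1.33 ± 0.23, adjusted p = 0.00179). IFI6, an interferon-induced survival protein, had 7.88, 9.27 and 8.73 against 24.5, 14.5 and 11.1 (log2 change -0.95 ± 0.21, adjusted p = 0.00727). BST2, which encodes the virus tether tetherin, had 0.228, 0.149 and 0.21 against 2.68, 1.08 and 0.513 (log2 change -2.84 ± 0.54, adjusted p = 0.00283). BST2 and DCN had equal summed counts in each siBRMsiHic5 transfection. For IFI6 and BST2 the siBRMsiNS transfections differed widely, with number 1 highest, while the siBRMsiHic5 transfections lay close together and below them all. XAF1, a pro-apoptotic interferon target, was barely detected, with 0.0175, 0.0407 and 0.0617 against 1.59, 0.343 and 0.156 (log2 change -3.94 ± 0.89, adjusted p = 0.00752). OAS1, which senses double-stranded RNA, fell as well (log2 change -2.01 ± 0.46, adjusted p = 0.0076). STAT2, a transcription factor of the interferon response, fell too (log2 change -0.39 ± 0.11, adjusted p = 0.0208), with a call that ended in 2 of the 6 left-out fits. The 2 members with a positive change, DDX58 and ISG20, were not called (adjusted p = 0.147 and 0.25).

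Promoters of IFIT1 and IFI6 are shown because both genes fell without overlap and both hold the letters of the interferon response element ISRE, read as GAAA, any 2 bases and GAAA on either strand. Within 250 bases before to 50 after the start, the letters lay in 15 of 21 interferon-stimulated genes with a RefSeq promoter (71.4%) and in 7 of 12 that were called (58.3%). They lay in 2.64% of the 11787 tested genes with a promoter and in 3.65% of all 27305 promoters. A match describes letters and is no measured binding site. The 250 bases before the start are printed 5′ to 3′ on the strand of the gene, from RefSeq on GRCh38.p14, with ISRE letters of either strand in capitals.
IFIT1, chr10:89392373-89392622, plus strand: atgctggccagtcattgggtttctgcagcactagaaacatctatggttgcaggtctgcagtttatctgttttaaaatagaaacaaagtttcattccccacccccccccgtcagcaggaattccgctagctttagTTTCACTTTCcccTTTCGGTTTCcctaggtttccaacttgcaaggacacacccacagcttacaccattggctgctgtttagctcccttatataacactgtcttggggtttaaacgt
IFI6, chr1:27672193-27672442, minus strand: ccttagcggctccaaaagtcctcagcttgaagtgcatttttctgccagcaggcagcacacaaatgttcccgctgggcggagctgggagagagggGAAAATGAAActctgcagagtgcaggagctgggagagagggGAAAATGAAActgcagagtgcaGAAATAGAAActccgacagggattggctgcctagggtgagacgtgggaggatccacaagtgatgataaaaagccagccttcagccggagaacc

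Sterol and stress genes mostly had positive changes. Of 24 cholesterol synthesis genes, many of them targets of the factor SREBP2, 4 rose and no member fell, and the median of 0.51 was the highest of the 30 lists. The number that rose was 10 without siBRMsiNS replicate 3, 7 without siBRMsiHic5 replicate 1, 2 without siBRMsiNS replicate 1 or siBRMsiHic5 replicate 3, and 13 with the replicate block. Over all 15179 genes 2266, 531, 474, 726 and 1484 rose in these fits, in the same order, against 1084 in the main fit. HMGCS1, HMG-CoA synthase, had 737, 985 and 1236 scaled CPM with siBRMsiHic5 and 376, 527 and 592 with siBRMsiNS (log2 change 0.98 ± 0.24, adjusted p = 0.0108). CYP51A1, lanosterol demethylase, had 334, 449.9 and 515 against 148, 251 and 270.2 (log2 change 0.96 ± 0.22, adjusted p = 0.0075). In both genes the level differed between replicate numbers in the same way in both conditions, and no library overlapped. SREBF2, the gene of SREBP2, rose (log2 change 0.53 ± 0.12, adjusted p = 0.00814), as did INSIG1, which holds SREBP back in the endoplasmic reticulum (log2 change 1.11 ± 0.34, adjusted p = 0.0338). The calls of HMGCS1 and INSIG1 ended in some left-out fits.

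Of 23 antioxidant genes controlled by NRF2, 5 rose and 1 fell (median 0.17), where 7.14% of all genes rose and 11.9% fell. HMOX1, heme oxygenase, had 482, 444 and 699 scaled CPM with siBRMsiHic5 and 76.7, 80.03 and 115 with siBRMsiNS. The lowest siBRMsiHic5 library, 382, lay far above the highest siBRMsiNS library, 120 (log2 change 2.58 ± 0.41, adjusted p = 0.0011). FTH1, the ferritin heavy chain that stores iron, had 5569, 4305 and 6464 against 2313, 1711 and 2411, also without overlap (log2 change 1.34 ± 0.24, adjusted p = 0.00236). GCLM, a subunit of the enzyme that limits glutathione synthesis, rose (log2 change 0.85 ± 0.14, adjusted p = 0.00136). NQO1 (0.21), TXNRD1 (-0.16) and SLC7A11 (0.24), given as log2 changes, were not called. Of 27 genes of the ATF4 and unfolded protein responses 4 rose and no member fell (median 0.24). HERPUD1, which serves protein disposal at the endoplasmic reticulum, had 128, 116 and 144 against 80.04, 68 and 81.7, with no overlap (log2 change 0.76 ± 0.10, adjusted p = 0.000512). The calls of TRIB3 (0.80), XBP1 (0.49) and DDIT3 (0.99) ended in some left-out fits.

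Of 18 immediate early genes 2 rose and no member fell (median 0.25). MYC, a regulator of growth, had 178, 145 and 167 scaled CPM with siBRMsiHic5 and 119, 97 and 103 with siBRMsiNS, apart in all transfections but not in all libraries (log2 change 0.62 ± 0.11, adjusted p = 0.00208). KLF6 (log2 change 1.12 ± 0.30, adjusted p = 0.0177) lost its call in some left-out fits. Of 25 p53 targets 2 rose and 1 fell: BTG2 and CCNG1, with log2 changes of 1.15 and 0.51, and DDB2 with -0.54, all with calls that ended in some left-out fits. Of 14 mesenchymal and epithelial state genes only EPCAM was called (log2 change 0.76 ± 0.21, adjusted p = 0.0189), with the same limit. No member of 17 inflammatory genes repressed by glucocorticoids was called by edgeR, with 1 at an unadjusted p under 0.05, where 34.5% of all genes lay, and 1 called by DESeq2. edgeR called 2 lower without siBRMsiNS replicate 3, 1 lower without siBRMsiNS replicate 2 and 1 higher in dex libraries alone. VCAM1 came closest, at 0.0525, 0.0407 and 0.0617 against 0.957, 0.11 and 0.123 (adjusted p = 0.0586). Of 31 cytosolic ribosomal protein genes none was called by edgeR, 2 had an unadjusted p under 0.05, and DESeq2 and limma each called 1.

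Remodeler and receptor cofactor genes changed in both directions, where 7.14% of all genes rose and 11.9% fell. Of 26 SWI/SNF subunit genes 3 rose and 4 fell (median -0.11). BCL7A, an accessory subunit, had 9.4, 13.9 and 15.7 scaled CPM with siBRMsiHic5 and 5.26, 5.62 and 5.39 with siBRMsiNS (log2 change 1.26 ± 0.20, adjusted p = 0.00094), and its relative BCL7B rose as well (log2 change 0.87 ± 0.15, adjusted p = 0.00171). SMARCD3, a subunit known from heart and muscle, had 11.8, 13.8 and 10.1 against 32.4, 25.6 and 15.7 (log2 change -1.04 ± 0.21, adjusted p = 0.00371), and ARID1A, a large DNA-binding subunit, had 79.2, 83.8 and 74.4 against 161, 116 and 96.8 (log2 change -0.65 ± 0.15, adjusted p = 0.00971). None of these 4 genes overlapped in any library, but the ARID1A call ended without siBRMsiNS replicate 1. Of 10 CHD remodelers only CHD6 was called (log2 change -0.56 ± 0.10, adjusted p = 0.00283), and 3 were with the replicate block. Of 23 steroid receptors and coregulators 6 fell and no member rose (median -0.19). In vehicle libraries alone 8 fell and 1 rose, where 11.6% of all genes fell and 7.2% rose. In dex libraries alone 0 were called, where 8.75% of all genes fell and 5.63% rose. The difference between the arms was called for 0 members. The coactivators NCOA2 (log2 change -0.53 ± 0.11, adjusted p = 0.00501) and CREBBP (log2 change -0.31 ± 0.08, adjusted p = 0.0178) and the corepressor NCOR1 (log2 change -0.39 ± 0.11, adjusted p = 0.024) fell, and the CREBBP and NCOR1 calls ended in some left-out fits.

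Of 33 glucocorticoid-induced genes 2 rose and 4 fell (median -0.22, with 7 that fell without siBRMsiNS replicate 3). With 7.14% of all genes called higher and 11.9% called lower, these counts are by themselves no result about the list. KLF15, a metabolic transcription factor, had 1.49, 1.74 and 1.21 scaled CPM with siBRMsiHic5 and 3.25, 3.16 and 2.91 with siBRMsiNS (log2 change -1.07 ± 0.19, adjusted p = 0.00228), and FOXO1, another metabolic regulator, had 15.7, 16.1 and 20.6 against 57.5, 31.3 and 33.5 (log2 change -1.22 ± 0.23, adjusted p = 0.0032). Neither overlapped between transfections. Single libraries overlapped only between siBRMsiHic5 dex and siBRMsiNS vehicle libraries, and not within either hormone arm. FOXO1 was called in both arms. KLF15 was called in dex libraries alone (log2 change -1.13 ± 0.227, adjusted p = 0.0055). In vehicle libraries alone KLF15 was not called (log2 change -0.77 ± 0.517, adjusted p = 0.313). For KLF15 the difference between the arms was not called (adjusted p = 0.814). SLC19A2, a thiamine transporter, rose (log2 change 0.64 ± 0.14, adjusted p = 0.00568). The call of SCNN1A, a sodium channel subunit, ended in some left-out fits (log2 change -0.90 ± 0.22, adjusted p = 0.011).

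Of 27 mitotic genes 4 fell and no member rose (median -0.23), with 6 that fell without siBRMsiNS replicate 3 and 1 in 4 of the other 5 left-out fits. Of 35 DNA replication and S-phase genes 3 fell and no member rose (median -0.34). With 11.9% of all genes called lower, these counts are by themselves no result about proliferation genes. MKI67, a proliferation marker, had 243, 271 and 214 scaled CPM with siBRMsiHic5 and 391, 396 and 338 with siBRMsiNS, with no overlap (log2 change -0.63 ± 0.18, adjusted p = 0.0279). KIF20A, a kinesin of cytokinesis, fell (log2 change -0.92 ± 0.21, adjusted p = 0.00838), and so did the mitotic kinases AURKA (-0.66) and PLK1 (-0.82). E2F2, a transcription factor of S-phase entry, had 4.17, 6.37 and 4.89 against 17.3, 17 and 16, clearly apart (log2 change -1.70 ± 0.32, adjusted p = 0.00268). The calls of MKI67, AURKA, PLK1, PCNA (-0.37) and MCM7 (-0.43) ended in some left-out fits. All 10 histone genes listed had negative changes (median -0.65) and 4 fell: HIST1H2BC (log2 change -1.68 ± 0.24, adjusted p = 0.000562), HIST1H2BK (log2 change -0.89 ± 0.19, adjusted p = 0.00608), HIST1H3D (log2 change -1.20 ± 0.22, adjusted p = 0.00242) and H1F0 (log2 change -0.57 ± 0.15, adjusted p = 0.0162). H1F0 is a linker histone made outside S phase too, and its call ended in some left-out fits. Histone genes have near-identical copies, so reads may be split among them.

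The genes with the smallest p values lay mostly outside these lists. NECAP2, an adaptor of endocytosis, had 20.5, 19.4 and 21 scaled CPM with siBRMsiHic5 and 43.5, 45.2 and 45.8 with siBRMsiNS, the smallest adjusted p of all (log2 change -1.14 ± 0.09, adjusted p = 8.79e-06). GYG2, a glycogenin that primes glycogen, had 4.36, 4.6 and 3.95 against 16.3, 17.3 and 11.9 (log2 change -1.82 ± 0.17, adjusted p = 3.25e-05). EPHB3, an ephrin receptor (log2 change -1.65 ± 0.17, adjusted p = 7.85e-05), and MAGED1 (log2 change -1.23 ± 0.13, adjusted p = 7.85e-05) fell as well. Each of these 4 had no library in common between conditions. Among genes that rose, ACRC (chrX:71578437-71613583 on GRCh38, now named GCNA and known from germ cells) had 68.2, 55 and 69.9 against 6.39, 6.16 and 9.03, with no overlap in any library (log2 change 3.16 ± 0.34, adjusted p = 8.9e-05). CFDP1, a chromatin protein, had 149, 112 and 114 against 57.5, 51.2 and 55.5 (log2 change 1.19 ± 0.13, adjusted p = 8.9e-05). TRMT11, part of a tRNA methyltransferase (log2 change 0.84 ± 0.09, adjusted p = 8.9e-05), ABHD5, the coactivator of a triglyceride lipase (log2 change 0.74 ± 0.09, adjusted p = 0.000162), RASA3, a Ras GTPase-activating protein (log2 change 0.95 ± 0.12, adjusted p = 0.000198), and GABRA3, a GABA receptor subunit (log2 change 0.94 ± 0.12, adjusted p = 0.000321), rose.

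Of the 15 largest changes each way among genes with a mean of at least 1 scaled CPM and no overlap of transfections, the rises spanned log2 changes of 1.82 to 3.72 and the falls -3.58 to -2.25. The risers not yet described were ESM1, SYP, HHLA1, DGKI, CD300LB, LINC01057, ITPR1-AS1, DHRS9, DIRC3, CD22, MYCT1 and KRTAP2-2. Calls of the last 5 ended in some left-out fits. HHLA1 had 75.4, 58.4 and 44.7 against 11.4, 17.6 and 21.2 (log2 change 1.83 ± 0.29, adjusted p = 0.00094), and SYP, the synaptic vesicle protein synaptophysin, had 69.7, 42.5 and 28 against 11.8, 10.2 and 16.9 (log2 change 1.85 ± 0.31, adjusted p = 0.00158). ITPR1-AS1 (chr3:4490317-4493163 on GRCh38) is now named ITPR1-DT, and the strand of the reads was not stated. The fallers not yet described were CDK15, IGF2BP1, TRIL, ENTPD8, POM121L9P, ADAM28, CLEC1A, KY, KCNJ10, F13A1, KCNA1 and SLFN11, and calls of the last 3 ended in some left-out fits. IGF2BP1, an RNA-binding protein, had 1.07, 1.06 and 1.51 against 6.75, 3.96 and 7.53 (log2 change -2.32 ± 0.28, adjusted p = 0.000174). CDK15, a cyclin-dependent kinase relative, had 1.44, 0.516 and 0.655 against 5, 3.65 and 5.14 (log2 change -2.42 ± 0.31, adjusted p = 0.000321).

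The Hic-5 comparison was also made within each hormone arm. In vehicle libraries 2855 genes were called (18.8%; 1093 higher, or 7.2%, and 1762 lower, or 11.6%) and in dex libraries 2182 (14.4%; 854 higher, or 5.63%, and 1328 lower, or 8.75%). Of these, 594 were higher in both (54.3% of the vehicle and 69.6% of the dex calls), 964 were lower in both (54.7% and 72.6%), and no gene was called in opposite directions. The arms share replicate numbers and their libraries deviated together, so they were not taken to replicate each other. HMOX1 rose in both arms (log2 change 2.87 ± 0.39 in vehicle and 2.20 ± 0.46 in dex), and FHL1 fell in both (-1.15 ± 0.10 and -1.14 ± 0.11). The dex response itself was then compared between siBRMsiHic5 and siBRMsiNS within transfections. edgeR called 0 genes (0% of 15179) although 2301 (15.2%) had an unadjusted p under 0.05, and DESeq2 called 225. Without siBRMsiNS replicate 3 edgeR called 59. Among the named genes the lowest adjusted p was 0.0661, for NCOA2 (difference of log2 changes 0.63 ± 0.13), NCOR1 (0.40 ± 0.09), CREBBP (0.35 ± 0.07) and CHD6 (0.45 ± 0.09). CHD9 (0.52 ± 0.13, adjusted p = 0.0804) and the LIM adaptor LPP (0.50 ± 0.125, adjusted p = 0.0878) had values near it. None of these differences was called. The named genes were picked in part from lists of coregulators, remodelers and LIM adaptors, so these values are by themselves no result about such genes. For NCOA2 the Hic-5 change was -0.85 ± 0.13 in vehicle (adjusted p = 0.00078) and -0.22 ± 0.13 in dex (adjusted p = 0.288), and the difference between them was not called.

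**Figure D3:**
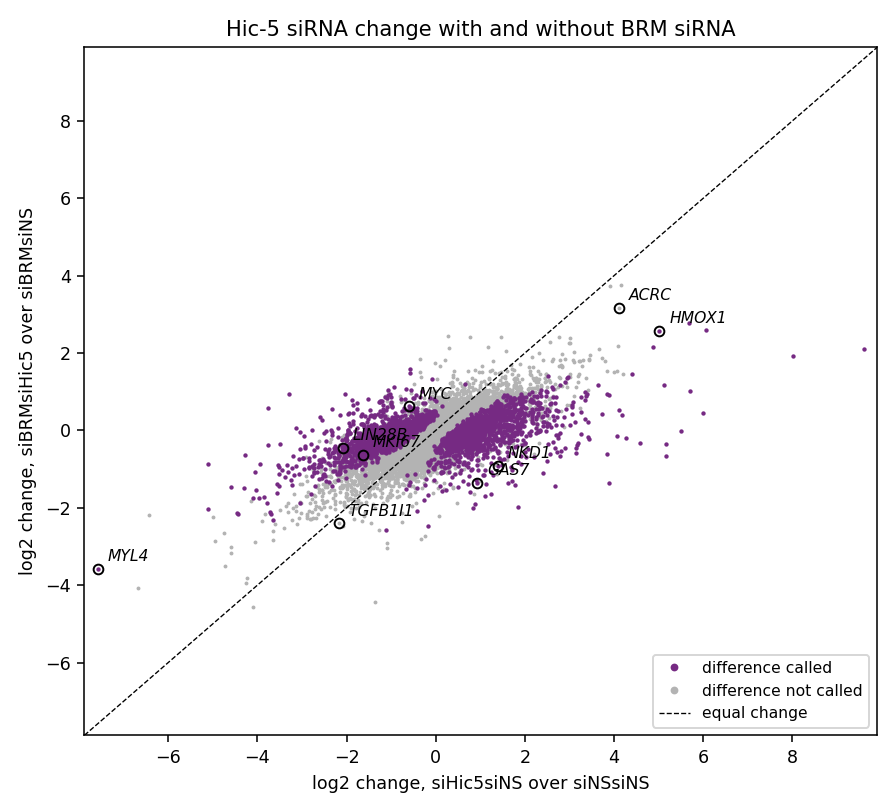
log2 change with Hic-5 siRNA when BRM siRNA is present (siBRMsiHic5 over siBRMsiNS, vertical axis) against that without a remodeler siRNA (siHic5siNS over siNSsiNS, horizontal axis) for 15179 genes, with genes whose 2 changes differ by the test in purple. HMOX1 and MYL4 changed less with BRM siRNA, and GAS7, NKD1 and MYC changed in opposite directions.

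Whether the Hic-5 effect depends on BRM siRNA was read from the other 2 pairs of conditions, which share no library with this one. Hic-5 siRNA changed 8374 genes without a remodeler siRNA (55.2%; 3998 higher, or 26.3%, and 4376 lower, or 28.8%) and 5208 with the siCHD9 label (34.3%; 2082 higher, or 13.7%, and 3126 lower, or 20.6%). The libraries labelled siCHD9siHic5 averaged 121 ± 19.4 scaled CPM of CHD9, those labelled siCHD9siNS 68.1 ± 11.7 and siNSsiNS libraries 89.6 ± 6.73 (SD, n = 3), so the CHD9 transcript goes against the siCHD9siHic5 label. TGFB1I1 averaged 6.39 ± 2.58 with siHic5siNS against 28.8 ± 1 with siNSsiNS, and 7.41 ± 1.32 with siCHD9siHic5 against 38.5 ± 5.54 with siCHD9siNS. No difference between these changes and that with BRM siRNA was called (adjusted p = 0.623 and 0.97). Of the 1084 genes that rose with BRM siRNA, 822 (75.8%) also rose without a remodeler siRNA, 20.6% of the rises there, and 17 fell. Of the 1810 that fell, 1312 (72.5%) also fell there, 30% of the falls, and 66 rose. With the siCHD9 label the shared calls were 426 higher (39.3%; 20.5% of the rises there) and 839 lower (46.4%; 26.8%), while 44 of the risers fell and 100 of the fallers rose there. In all 3 comparisons 393 genes rose and 726 fell, among them ACRC, HMOX1, FTH1, GCLM, SREBF2 and MMP3 that rose and FHL1, NECAP2, FERMT2, LOXL2, IFIT1, BMP4 and MYL4 that fell.

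The difference between the Hic-5 effects was tested directly. It was called for 2977 genes against the comparison without a remodeler siRNA (19.6%; 9.7% more positive and 9.92% more negative with BRM siRNA) and for 1603 against that with the siCHD9 label (10.6%; 5.29% and 5.27%). Of the 27 mitotic genes 4 fell with BRM siRNA, against all 27 without a remodeler siRNA (medians -0.23 and -1.49) and 18, with 1 that rose, with the siCHD9 label (median -0.65). The difference from the comparison without a remodeler siRNA was called for 25 of the 27, all more positive with BRM siRNA, and the difference from that with the siCHD9 label for 3. MKI67 averaged 243 ± 28.9 scaled CPM with siBRMsiHic5 and 375 ± 32.2 with siBRMsiNS, but 176 ± 52.7 with siHic5siNS and 546 ± 71.2 with siNSsiNS. The fall was smaller with BRM siRNA (difference of log2 changes 1.00 ± 0.26, adjusted p = 0.0145). PLK1 (difference of log2 changes 1.42 ± 0.32, adjusted p = 0.00677) and KIF20A (difference of log2 changes 1.65 ± 0.30, adjusted p = 0.00196) differed likewise. Of 35 replication genes 6 differed, all more positive with BRM siRNA.

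**Figure D4:**
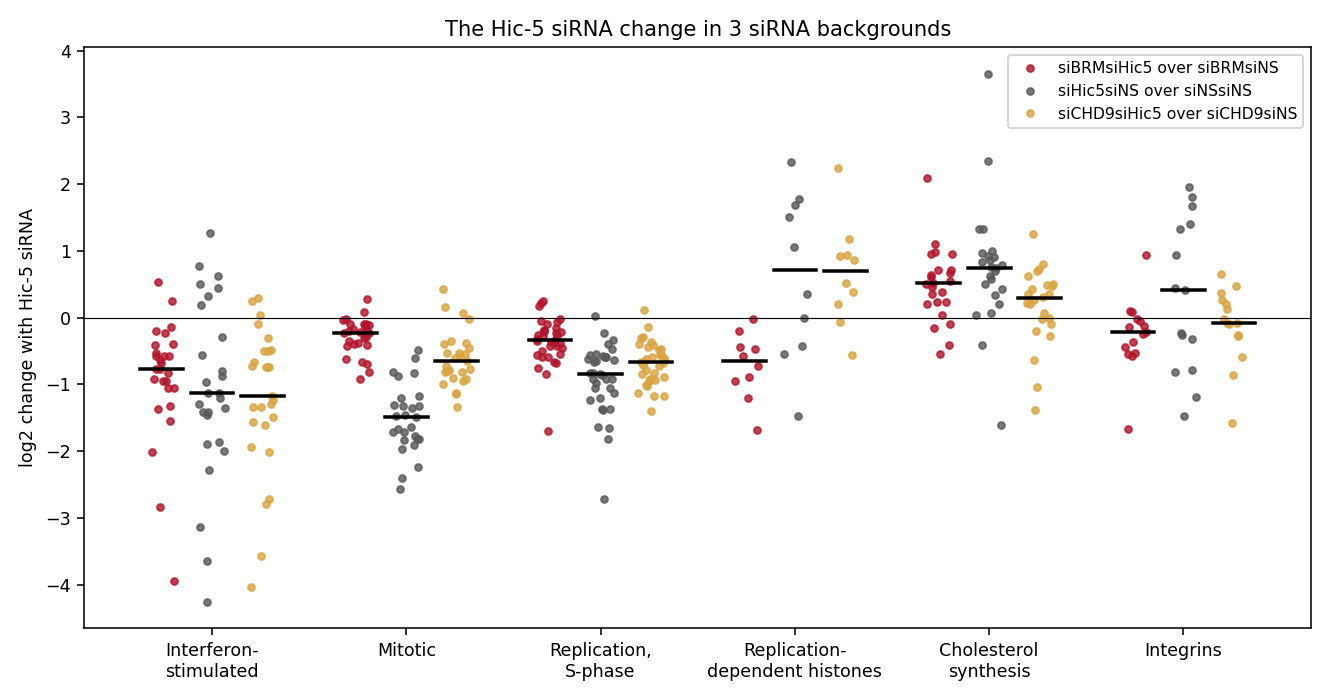
log2 change with Hic-5 siRNA of the genes of 6 lists with BRM siRNA, without a remodeler siRNA and with the siCHD9 label, each point a gene, with the median marked. Mitotic genes have a median of -0.23 with BRM siRNA against -1.49 without a remodeler siRNA, and histone genes -0.65 against 0.71.

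Promoters of MKI67 and PLK1 are shown because their changes differed with BRM siRNA and many mitotic promoters hold the cell cycle element CHR. Its letters TTTGAA, searched on both strands in the same window, lay in 15 of 22 mitotic genes with a promoter (68.2%), in 10.1% of tested genes and in 15.4% of all promoters. CHR letters are in capitals, again as a description and not a measured site.
MKI67, chr10:128126424-128126673, minus strand: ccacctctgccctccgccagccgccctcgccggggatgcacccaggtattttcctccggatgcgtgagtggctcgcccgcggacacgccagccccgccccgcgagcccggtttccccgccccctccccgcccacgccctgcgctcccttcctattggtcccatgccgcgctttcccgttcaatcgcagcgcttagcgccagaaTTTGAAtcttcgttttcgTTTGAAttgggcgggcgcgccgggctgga
PLK1, chr16:23678639-23678888, plus strand: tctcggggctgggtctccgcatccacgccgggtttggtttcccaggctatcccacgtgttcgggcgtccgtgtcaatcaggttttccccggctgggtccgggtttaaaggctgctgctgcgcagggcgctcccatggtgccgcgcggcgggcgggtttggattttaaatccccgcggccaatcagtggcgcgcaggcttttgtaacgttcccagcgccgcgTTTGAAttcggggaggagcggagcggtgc

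Single genes differed in size or in direction. HMOX1 rose by a log2 change of 2.58 with BRM siRNA, against 5.02 without a remodeler siRNA (difference of log2 changes -2.44 ± 0.56, adjusted p = 0.00746). HERPUD1 rose by 0.76 against 2.00 (difference of log2 changes -1.24 ± 0.15, adjusted p = 0.000161), and ADAMTS12 had -1.24 against -2.62 (difference of log2 changes 1.37 ± 0.20, adjusted p = 0.000586). In these 3 genes the direction was shared and the change smaller with BRM siRNA. MYC averaged 163 ± 16.9 scaled CPM with siBRMsiHic5 and 106 ± 11.2 with siBRMsiNS, against 67.4 ± 10.1 with siHic5siNS and 102 ± 2.45 with siNSsiNS. It thus rose with BRM siRNA and fell without (difference of log2 changes 1.22 ± 0.16, adjusted p = 0.00024). NKD1 did the reverse, with -0.92 against 1.39 (difference of log2 changes -2.30 ± 0.29, adjusted p = 0.000193). GAS7, a cytoskeletal protein, had 3.97, 4.71 and 5.27 with siBRMsiHic5 and 11.2, 11.4 and 13.2 with siBRMsiNS, and a log2 change of -1.36 against 0.93 (difference of log2 changes -2.29 ± 0.21, adjusted p = 2.5e-05). Against the pair labelled siCHD9, NCOA2 fell with BRM siRNA (-0.53) and rose with the siCHD9 label (0.93; difference of log2 changes -1.46 ± 0.16, adjusted p = 0.000242), and CREBBP did the same (-0.31 and 0.37; difference of log2 changes -0.67 ± 0.12, adjusted p = 0.00304).

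Other lists differed in part. Of 27 collagen and laminin genes 0 rose and 4 fell with BRM siRNA, against 13 that rose and 8 that fell without a remodeler siRNA, and the difference was called for 11 that were more negative with BRM siRNA and 1 more positive (median difference -0.78). Of 10 histone genes 6 were more negative, HIST1H3D among them (difference of log2 changes -1.55 ± 0.30, adjusted p = 0.00293). Of 15 integrins 6 were more negative and 2 more positive. Of 27 interferon-stimulated genes 16 fell with BRM siRNA (median -0.76), 19 fell and 4 rose without a remodeler siRNA (median -1.13) and 17 fell with the siCHD9 label (median -1.18), and the difference from the comparison without a remodeler siRNA was called for 6. Of 24 cholesterol synthesis genes 4 rose and 0 fell with BRM siRNA, 15 rose and 1 fell without a remodeler siRNA, and 4 rose and 1 fell with the siCHD9 label; the difference from the comparison without a remodeler siRNA was called for 1. Across genes the log2 change with BRM siRNA had a Pearson correlation of 0.648 with that without a remodeler siRNA and 0.514 with that with the siCHD9 label, a description over 15179 genes. GC content was related to the difference from the comparison without a remodeler siRNA (Spearman -0.217 over 14830 genes), and gene length to the difference from the pair labelled siCHD9 (Spearman -0.286); their part in the results was not tested.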

How the data were processed

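RNA was sequenced from 36 libraries. Per the submitters' processing notes, reads were handled with TopHat2 2.1.1 and edgeR on GRCh38 (hg38); no source used here names the read counter or its annotation. The table the authors deposited holds whole-number counts for 15186 genes; its name speaks of normalised CPM, but upper quartiles and totals differ between libraries, so the values were taken as raw counts. Vehicle and dex counts of each transfection were summed, upper-quartile scaled, and genes kept above 1 scaled CPM in at least 3 libraries (15179). The 18 sums entered edgeR 4.0.16 (R 4.3.3, quasi-likelihood, 12 residual degrees of freedom). The fit was checked on simulated counts. There each gene had the same spread in all conditions, so the check could not test the use of a shared spread. Alternatives were limma 3.58.1 and DESeq2 1.42.0. Same-numbered siBRMsiHic5 and siBRMsiNS transfections deviated together (r = 0.285, 0.708 and 0.36; different numbers -0.383 to -0.0315), so a replicate block was also fitted. Positions and promoters are from RefSeq (99.5% of genes matched by Entrez ID). Replicates were made on different days, per the labels. Members and gene lists were chosen with earlier results of these data known. Named genes were the targeted genes and paxillin family, the 15 largest non-overlapping and 6 smallest-p calls each way, up to 4 calls per list (2 uncalled where none), and 6 per difference each way; other names (INHBB, OAS1, STAT2, DDX58, ISG20, NQO1, TXNRD1, SLC7A11) were added after their values were seen. Some genes that this rule selects are not reported here.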

Additional observations from a re-analysis of the deposited data

Results flagged for a closer look

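The effect of Hic-5 siRNA differed with the siRNA it was added to, by a test of the difference itself. It differed between BRM siRNA and no remodeler siRNA for 2977 genes, and between BRM siRNA and the pair labelled siCHD9 for 1603.

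The 12 genes picked from the comparison with no remodeler siRNA follow as differences of log2 changes, positive where the change with BRM siRNA was more positive. They were -3.19 for ZDHHC22, -3.12 for FLJ46906, -2.34 for NHSL1, -2.29 for GAS7, -1.97 for ZHX2 and -1.73 for BTNL9. Of these, GAS7 alone was called with BRM siRNA. They were 1.82 for TRIP13, 1.64 for LIN28B, 1.47 for RAB8B, 1.47 for SGTB, 1.18 for GSKIP and 1.16 for RRAS2. All 6 of these fell without a remodeler siRNA, and of them LIN28B alone was called with BRM siRNA.

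Against the pair labelled siCHD9 the differences were -2.32 for ZBTB20, -2.19 for LOC100190986, -1.59 for SMG1P2, -1.46 for NCOA2, -1.43 for SNX29P2 and -1.35 for TAB3. These 6 fell with BRM siRNA and rose with the siCHD9 label. SMG1P2 and SNX29P2 are pseudogenes with near-identical copies, so their counts are uncertain. The differences were 2.21 for TCEAL2, 2.04 for LRRC20, 1.39 for GSTO1, 1.36 for TRPM2, 1.08 for BTBD10 and 1.02 for NUDT2. GSTO1, BTBD10 and NUDT2 rose with BRM siRNA, and all 6 fell with the siCHD9 label.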

How the results depend on the processing

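The number of genes called moved by more than 1.5 times under many of the settings named here. It moved less with the replicate block in all conditions and without both transfections numbered 3. For both hormones together, 12 libraries with hormone as a covariate called 4586, the 2 conditions alone 228 and, with the replicate block, 1249, and the block without siBRMsiNS replicate 3 called 5206. With 1 transfection left out the count ran between 1441 and 5003. With the 2 conditions alone the vehicle count was 335 and the dex count 36, and with 1 transfection left out they ran between 1418 and 4416 and between 779 and 4477. For the difference of dex responses the main fit called 0, DESeq2 225, left-out fits 0 to 59 and the fit with no replicate block 0. The difference from the pair labelled siCHD9 ran between 750 and 2456 in left-out fits, lowest without siCHD9siHic5 replicate 1. The replicate block gave 3621 for both hormones, 3459 in vehicle and 2706 in dex; besides CHD9 and TRIP6 it changed no other named call. No named called gene reversed under any setting, and 38 of 133 kept their call under every one; 76 did when the fits of the 2 conditions alone were set aside. Scalings moved the median of all genes by -0.0351 to 0.055. The block without siBRMsiNS replicate 3, the fit without both transfections numbered 3 (3932 calls) and the block in the 2 conditions alone were chosen after seeing the data. With 3 transfections a side, changes near the spread between them were not detectable.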
